A study of Mus musculus with 6 samples.

Results

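The genes described here fold proteins in the endoplasmic reticulum (ER) or send misfolded proteins from it to degradation. They were chosen by name, with earlier results of these data known, as 35 chaperones, disulfide isomerases, stress sensors and degradation factors. All 35 were found among the 16547 genes of the deposited table. Their values come from RNA sequencing of isolated pancreatic islets of C57BL/6 mice aged 11 to 12 weeks, in 2 groups of 3 libraries. The control group (WT) had the genotype Kcnj11 fl/fl, a conditional allele. The other group (bKO) was Kcnj11 -/- in beta cells, and the promoter that drove the deletion is not given in the sources used here. Kir6.2, the protein of Kcnj11, forms the pore of the channel by which ATP closes a potassium current and lets beta cells depolarize. Islets of both groups were picked by hand and kept in RPMI medium for 2 days before RNA extraction. Whether each library came from its own animal is not stated, and p-values measure the spread between these libraries, part of which may be technical.

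Beta cells make proinsulin in very large amounts, and it must form its disulfide bonds in the ER lumen before it can leave. Chaperones of the Hsp70 and Hsp90 families hold unfolded chains, calreticulin and calnexin hold chains with sugar side chains, and protein disulfide isomerases form and reshuffle their bonds. Chains that fail to fold are drawn back through the ER membrane, tagged with ubiquitin and degraded in the cytosol, a process called ER-associated degradation. When unfolded chains build up, the sensors Atf6 and Ire1 (gene Ern1) raise transcription of these same genes, Atf6 as a cleaved transcription factor and Ire1 by splicing the mRNA of the transcription factor Xbp1. Both factors act at a promoter sequence called the ER stress response element (ERSE), which was defined from promoters of ER chaperone genes.

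Promoter windows in RefSeq (build GRCm38.p6, 250 bases before to 50 after each transcription start) were available for 30 of the 35 genes and were searched on both strands for exact matches. The ERSE was searched as CCAAT and CCACG with 9 bases between, and the related element ERSE-II as ATTGG and CCACG with 1 base between. An ERSE was present in 10 of the 30 genes (33.3%) and an ERSE-II in the other 2 of 12 genes with a match. Of all 32851 windows in the table, 0.119% held an ERSE and 0.0365% an ERSE-II. Among 12554 tested genes with a window, 20 held an ERSE (0.159%), and 10 of those 20 were the genes named here. The elements are shown because they are a sequence feature that many of these genes share. The choice of genes by name did not use it, although the element was first described in such genes. Each is read in the direction that puts CCAAT, or ATTGG for ERSE-II, first, and the fixed letters stand at both ends of each line.
Hspa5 ERSE: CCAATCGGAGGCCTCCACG
Hsp90b1 ERSE, distal: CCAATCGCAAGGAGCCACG
Hsp90b1 ERSE, proximal: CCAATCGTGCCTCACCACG
Pdia6 ERSE: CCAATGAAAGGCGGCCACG
Calr ERSE: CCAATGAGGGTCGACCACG
Canx ERSE: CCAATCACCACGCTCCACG
Dnajc3 ERSE: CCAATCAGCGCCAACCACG
Creld2 ERSE: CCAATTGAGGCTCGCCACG
Ero1lb ERSE: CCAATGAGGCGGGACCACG
Syvn1 ERSE: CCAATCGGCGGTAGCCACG
Derl3 ERSE: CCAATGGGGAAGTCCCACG
Herpud1 ERSE-II: ATTGGGCCACG
Dnajb11 ERSE-II: ATTGGCCCACG

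The element lay 47 to 65 bases upstream of the start of Hspa5, 80 to 98 bases upstream of Pdia6 and 42 to 52 bases upstream of Herpud1. That of Calr lay farther out, at 144 to 162 bases, and in the opposite orientation. Hsp90b1 held a pair of elements, at 194 to 212 and 89 to 107 bases. The whole windows of the 3 genes with an element and the smallest p-values in the comparison below are printed with the element in capitals, to show its place and surroundings. These are Pdia6 (chr12:17266339-17266638, plus strand), Herpud1 (chr8:94386179-94386478, plus strand) and Calr (chr8:84846882-84847181, minus strand), each read 5′ to 3′ on the strand of the gene.
Pdia6: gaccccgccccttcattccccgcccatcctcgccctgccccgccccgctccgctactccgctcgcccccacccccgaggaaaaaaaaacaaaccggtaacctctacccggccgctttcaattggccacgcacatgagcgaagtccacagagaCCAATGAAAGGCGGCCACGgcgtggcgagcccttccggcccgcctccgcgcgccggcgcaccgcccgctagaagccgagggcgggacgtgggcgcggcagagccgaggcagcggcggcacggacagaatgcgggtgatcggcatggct
Herpud1: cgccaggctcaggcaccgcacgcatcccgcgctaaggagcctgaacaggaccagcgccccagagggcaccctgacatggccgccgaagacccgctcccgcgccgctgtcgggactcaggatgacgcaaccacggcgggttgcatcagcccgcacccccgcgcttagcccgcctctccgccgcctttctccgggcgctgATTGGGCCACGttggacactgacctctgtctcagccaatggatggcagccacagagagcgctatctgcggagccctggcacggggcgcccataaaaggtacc
Calr: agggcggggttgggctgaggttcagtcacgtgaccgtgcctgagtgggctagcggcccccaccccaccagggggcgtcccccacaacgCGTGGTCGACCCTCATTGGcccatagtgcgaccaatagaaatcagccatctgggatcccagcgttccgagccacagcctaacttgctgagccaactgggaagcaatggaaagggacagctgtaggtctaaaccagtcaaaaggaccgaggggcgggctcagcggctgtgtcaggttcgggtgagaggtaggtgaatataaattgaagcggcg

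Other stress elements were rare among these genes. The core of the UPRE, an element bound by Xbp1 and Atf6, was searched as TGACG followed by TGG. It was found in Txndc5 and Txndc11, 6.7% of the 30 genes against 0.996% of tested genes with a window. A composite site of the factor Atf4, searched as TGATG and AA with 1 base between, was found in Herpud1 and Txndc5. That was 6.7% of the 30 genes against 2.9% of tested genes with a window. The companion list of 80 other ER folding and degradation genes, described below, had windows for 62 genes and held 0 ERSE and 0 ERSE-II matches. A match is a run of letters in a window and says nothing about binding in these islets. Only exact matches were searched, so a gene without a match may still hold a variant of an element.

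The libraries differed by more than genotype. Kcnj11 was at 19.7, 24.7 and 25.4 FPKM in WT and 3.45, 5.31 and 3.51 FPKM in bKO in replicates 1, 2 and 3 of each group, the order used for all values below (log2 difference -2.35, SE 0.17, limma adjusted p = 0.02504). Insulin genes Ins1 and Ins2 took 29.8% to 37.4% of all FPKM in WT and 26.4% to 33.5% in bKO. FPKM scales fragments by transcript length and by the mapped fragments of the library. The depth was put at very roughly 20800000 to 35700000 fragments per library from the steps between low values, an estimate that only 34.7% to 41.3% of the values used fitted within 0.1 of a whole fragment. Libraries bKO 1 and 3 were far closer to each other than any other pair (Pearson r across genes 0.9986, against 0.9816 to 0.9956 for the others). Acinar cells, which secrete digestive enzymes and are rich in ER, left 20 of 20 markers detected in every library. Their summed level was 1541 FPKM in WT 1, 21689.5 and 25349.6 FPKM in WT 2 and 3, and 33054, 14997 and 32683 FPKM in bKO 1, 2 and 3.

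Setting bKO islets against WT islets asks which transcripts differ when beta cells lack the channel. Messenger RNAs of the 35 genes lay lower in bKO islets as a group, by small amounts, and 0 of them passed the test over all genes. The test was limma on quantile-normalized log2(FPKM + 1) with Benjamini-Hochberg adjustment over 15962 genes, and it called 31 genes in all, 0.194% of those tested. At an unadjusted p below 0.05, 20 of the 35 genes (57.1%) were lower and 0 were higher, where 9.17% of all tested genes were lower and 5.05% were higher. Differences were negative for 32 of 35 genes, against 53.0% of all tested genes. Their median was -0.18 on the log2 scale, against -0.0084 for all tested genes. In the deposited FPKM, every bKO library lay below every WT library for 13 of the 35 genes (37.1%), against 6.48% of all tested genes. The list was chosen with earlier results of these data known, so these shares describe it and are not independent support. The group is abundant, with 34 of 35 genes at a mean of at least 18 FPKM. Among the 4125 tested genes at or above that level, a bound set after seeing the data, 10.7% were lower at an unadjusted p below 0.05. In a mixture of cells such as an islet, fewer cells of a type and less RNA per cell cannot be told apart.

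The count of 20 lower genes rested in part on bKO libraries 1 and 3. It was 10 of 35 (28.6%) without bKO 1, without bKO 3 or with that pair averaged as 1 sample, where 5.02%, 4.85% and 4.95% of all tested genes were lower at the same threshold. It was 12 (34.3%) without WT 2, against 6.32% of all tested genes. The number of negative differences stayed between 31 and 34 under all 14 alternative settings run. Over all tested genes the share of negative differences ran from 34.8% without quantile normalization to 54.5% without bKO 2. Without quantile normalization 14 genes were lower (40%, against 5.11% of all tested genes) and the calls over all genes split into 19 higher and 20 lower, in place of 10 and 21.

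**Figure D1:**
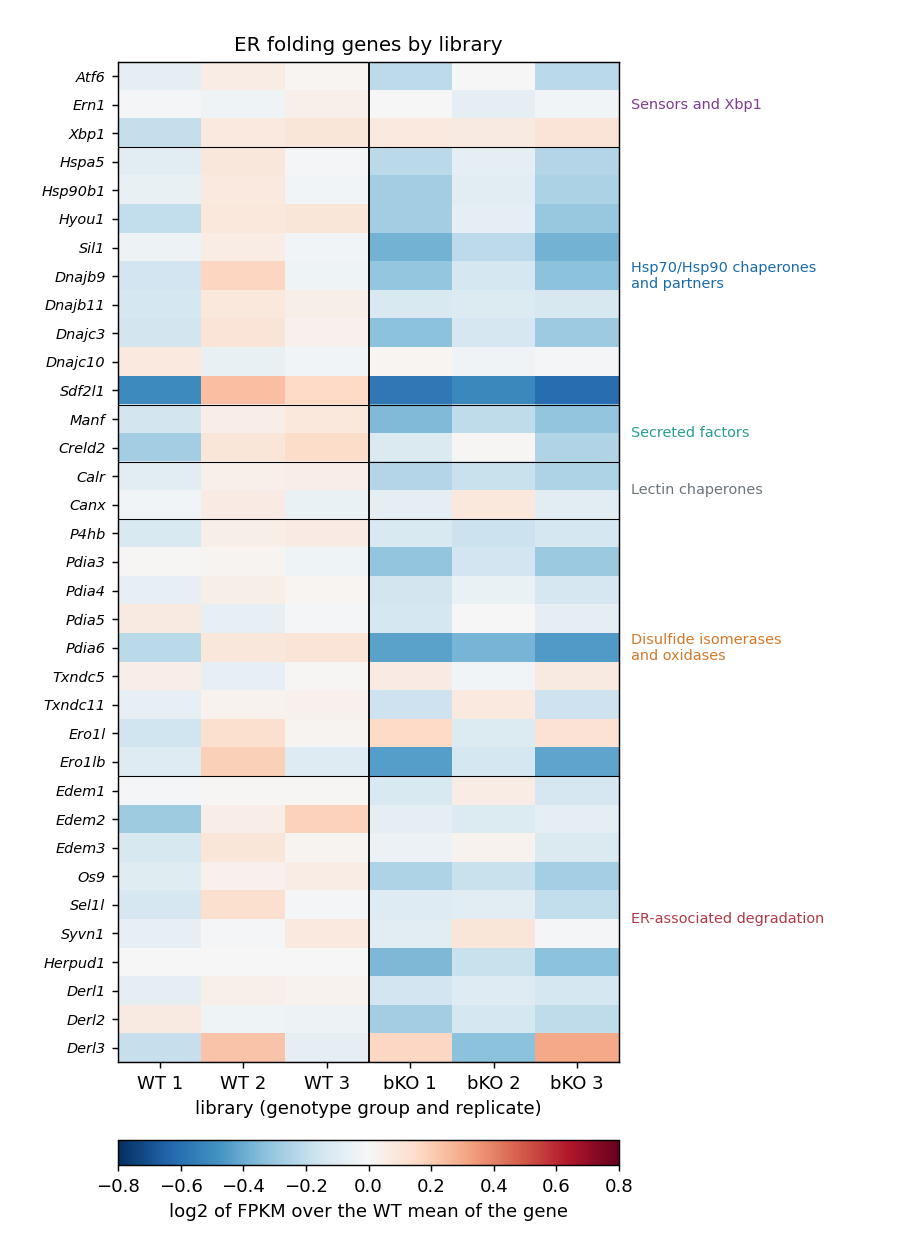
Heat map of the deposited FPKM of each of the 35 genes (rows, grouped by role) in each library (columns), as the log2 ratio to the WT mean of that gene, with blue below and red above it. The bKO columns are mostly blue, paler in bKO 2 than in bKO 1 and 3, and Sdf2l1 is nearly as low in WT 1 as in the bKO libraries.

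Of the 3 sensor and factor genes, 1 was lower at an unadjusted p below 0.05. Atf6, the membrane-bound transcription factor cleaved under stress, was at 20.7, 22.7 and 22.1 FPKM in WT and 18.9, 21.8 and 18.8 FPKM in bKO, and only bKO 1 and 3 lay below the WT range (log2 difference -0.19, SE 0.074, limma adjusted p = 0.317). Ern1, the kinase and nuclease Ire1, was at a mean of 39.98 ± 1.09 in WT and 39.1 ± 0.942 in bKO (SD, n = 3 each; log2 difference -0.083, 95% interval -0.19 to 0.025). Xbp1, the factor that Ire1 splices, was the most abundant of these 3, at 163, 197 and 200.1 FPKM in WT and 198, 196 and 201 FPKM in bKO. Libraries bKO 1 and 2 lay within the WT range and bKO 3 just above it, and WT 1 was the one low library (log2 difference 0.093, SE 0.069, limma adjusted p = 0.566). The table lists both Xbp1 transcripts with a single value, so splicing was not analysed here.

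At an unadjusted p below 0.05, chaperones of the Hsp70 and Hsp90 families and their partners lay lower most often, 7 of 9, against 9.17% of all tested genes. All 9 differences were negative, Dnajc10 with an exception given below. By overlap in deposited FPKM they did not lead. All bKO libraries lay below all WT libraries for 3 of these 9, 4 of 9 disulfide genes and 4 of 10 degradation genes. The same held for 1 of 2 secreted factors, 1 of 2 lectins, 0 of 3 sensors and 6.48% of all tested genes. Hspa5, the ER Hsp70 known as BiP and the most abundant gene of the 35, was at 609.6, 692 and 646 FPKM in WT and 558, 614 and 551 FPKM in bKO (log2 difference -0.26, SE 0.10, limma adjusted p = 0.336). Hsp90b1, the ER Hsp90 known as Grp94, was at 408, 449 and 418 FPKM in WT and 351, 402 and 357 FPKM in bKO (log2 difference -0.25, SE 0.093, limma adjusted p = 0.308). The groups of Hsp90b1 did not overlap in deposited FPKM but did after quantile normalization. For Hspa5, bKO 2 lay just above the lowest WT library in deposited FPKM. Hyou1, a large Hsp70 relative that exchanges nucleotide on BiP, was at 151, 184 and 185 FPKM in WT and 143, 164 and 140.4 FPKM in bKO. Sil1, the other nucleotide exchange factor of BiP, was at 52.8, 56.6 and 53.5 FPKM in WT and 41.8, 47.01 and 41.8 FPKM in bKO. The groups of Sil1 were well apart, and its mean in bKO was 80.2% of that in WT (log2 difference -0.35, SE 0.064, limma adjusted p = 0.1004), while those of Hyou1 overlapped at WT 1 and bKO 2 (log2 difference -0.23, SE 0.081, limma adjusted p = 0.279).

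J-domain proteins hand clients to BiP and start its ATP cycle, and they did not all lie low. Dnajb9, which also holds Ire1 in its inactive form, was at 107, 134 and 116 FPKM in WT and 96.3, 108 and 94.8 FPKM in bKO (log2 difference -0.27, SE 0.088, limma adjusted p = 0.2500). Dnajc3, also called p58IPK, was at 82.7, 98.03 and 93.6 FPKM in WT and 73.00, 83.5 and 74.6 FPKM in bKO (log2 difference -0.28, SE 0.075, limma adjusted p = 0.183). In both genes bKO 1 and 3 were below all WT libraries and bKO 2 lay just above WT 1. Dnajb11 had a log2 difference of -0.13 (95% interval -0.27 to 0.00070). Dnajc10, a reductase that opens disulfide bonds before degradation, had one of -0.031 (-0.18 to 0.12), which turned positive, to 0.027, without WT 1. Sdf2l1, a partner of Dnajb11 that keeps clients from aggregating, had the largest difference of the 35 genes and was at 63.2, 106 and 100.3 FPKM in WT and 60.4, 62.9 and 58.9 FPKM in bKO. Its WT libraries were split, since WT 1 was within 1 FPKM of bKO 2 and the other two WT libraries stood far above (log2 difference -0.55, SE 0.17, limma adjusted p = 0.238). Without WT 1, the library with few acinar transcripts, Sdf2l1 passed over all genes (log2 difference -0.76, limma adjusted p = 0.0289). The part of acinar RNA in its values was not tested.

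The secreted and the lectin chaperones each held 1 gene at an unadjusted p below 0.05. Manf, an ER protein that is secreted under stress and protects beta cells in mice, was at 83.9, 96.1 and 98.4 FPKM in WT and 72.7, 80.6 and 74.5 FPKM in bKO, with no overlap (log2 difference -0.32, SE 0.061, limma adjusted p = 0.107). Creld2, secreted under the same conditions, had a log2 difference of -0.13 (95% interval -0.39 to 0.13). Calr, the soluble lectin chaperone calreticulin, was at 457, 500.2 and 505 FPKM in WT and 413, 430.0 and 410.0 FPKM in bKO, again with no overlap (log2 difference -0.27, SE 0.065, limma adjusted p = 0.163). Canx, its membrane-bound relative calnexin, was at 132 ± 5.71 in WT and 130.5 ± 8.72 in bKO (mean FPKM ± SD, n = 3 each; log2 difference -0.043, 95% interval -0.21 to 0.12). The difference between Calr and Canx was not tested.

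**Figure D2:**
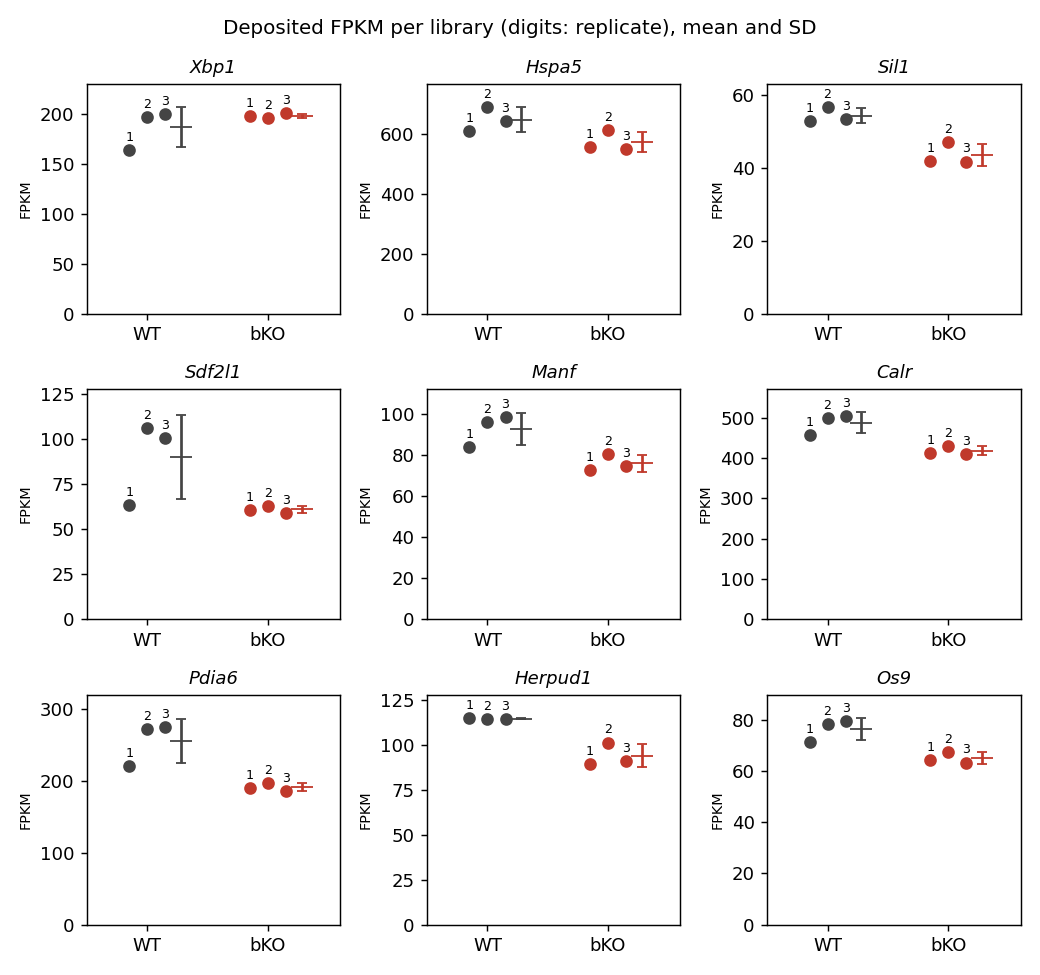
Deposited FPKM (vertical axis, from 0) of 9 genes in each WT and bKO library, with digits for the replicate and bars for the mean and SD of 3 libraries. The groups are apart for Sil1, Manf, Calr, Pdia6, Herpud1 and Os9, nearly touch for Sdf2l1, and overlap for Hspa5 and Xbp1. These 9 were picked and are not typical, since over all 35 genes every bKO library lies below every WT library for 13.

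Disulfide isomerases and oxidases held 9 genes, 5 of them lower at an unadjusted p below 0.05 and 0 higher. P4hb, the founding protein disulfide isomerase, was at 574, 646 and 655 FPKM in WT and 574, 556 and 567 FPKM in bKO and ranked second in level among the 35 genes (log2 difference -0.21, SE 0.064, limma adjusted p = 0.239). Pdia3, the isomerase that works with calreticulin and calnexin, was at 479, 483 and 464 FPKM in WT and 382, 427 and 387 FPKM in bKO (log2 difference -0.30, SE 0.098, limma adjusted p = 0.2500). Pdia6, which acts on BiP clients and binds Ire1, was at 220.3, 272 and 274 FPKM in WT and 189.9, 197 and 186 FPKM in bKO. The groups did not overlap for these 3 genes, though P4hb had less than 1 FPKM between them, and the bKO mean of Pdia6 was 74.8% of the WT mean (log2 difference -0.41, SE 0.081, limma adjusted p = 0.109). Without WT 1, Pdia6 passed over all genes (log2 difference -0.50, limma adjusted p = 0.0417), and no other of the 35 genes except Sdf2l1 did so under any setting run. Pdia4 was at 78.3, 84.5 and 82.7 FPKM in WT and 74.04, 78.9 and 74.7 FPKM in bKO, and bKO 2 lay within the WT range (log2 difference -0.15, SE 0.050, limma adjusted p = 0.266).

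Of the 2 oxidases that reoxidize these isomerases, 1 was lower at an unadjusted p below 0.05. Ero1lb, the isoform enriched in islets, was at 133, 163 and 133 FPKM in WT and 105, 129.9 and 107 FPKM in bKO, and bKO 1 and 3 were well below bKO 2, which was itself just under the WT range (log2 difference -0.36, SE 0.12, limma adjusted p = 0.2500). Ero1l, the isoform of most tissues, was at 49.6 ± 4.96 in WT and 51.7 ± 5.03 in bKO (mean FPKM ± SD, n = 3 each), a log2 difference of 0.033 (95% interval -0.20 to 0.27). The difference between the isoforms was not tested. Pdia5, Txndc5 and Txndc11, further members of the thioredoxin fold family, differed by -0.13, 0.0031 and -0.14 on the log2 scale, and limma gave adjusted p-values of 0.4196, 0.989 and 0.4697. The sign for Txndc5 and Ero1l depended on the libraries kept, and that for Txndc5 also on the scaling.

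In ER-associated degradation, 5 of 10 genes were lower at an unadjusted p below 0.05, and all 10 differences were negative, 9 without quantile normalization, where Derl3 turned. Os9, the lectin that hands misfolded glycoproteins to the ubiquitin ligase, was at 71.3, 78.2 and 79.4 FPKM in WT and 64.3, 67.5 and 63.3 FPKM in bKO, with no overlap (log2 difference -0.26, SE 0.046, limma adjusted p = 0.1004). Herpud1, a membrane protein that gathers the ligase complex, was at 115, 114 and 114 FPKM in WT and 89.4, 101 and 90.99 FPKM in bKO. Its WT libraries were within 1 FPKM of each other and all bKO libraries lay below them (log2 difference -0.31, SE 0.065, limma adjusted p = 0.122). Derl1 and Derl2, of the derlin family that helps to form the exit channel, were also apart. Derl1 was at 65.7, 70.99 and 70.5 FPKM in WT and 62.1, 64.4 and 62.7 FPKM in bKO (log2 difference -0.16, SE 0.043, limma adjusted p = 0.1905). Derl2 was at 24.2, 22.4 and 22.3 FPKM in WT and 18.9, 20.8 and 19.9 FPKM in bKO (log2 difference -0.26, SE 0.063, limma adjusted p = 0.156).

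The other genes of this pathway are the ligase, its scaffold, the mannosidases and another derlin. Sel1l, the scaffold of the ligase, was at 29.2, 35.2 and 31.98 FPKM in WT and 29.8, 30.2 and 27.98 FPKM in bKO (log2 difference -0.18, SE 0.074, limma adjusted p = 0.346), with bKO 3 alone below the WT range. Syvn1, the ligase Hrd1 itself, was at 28.8 ± 1.46 in WT and 28.8 ± 1.84 in bKO (mean FPKM ± SD, n = 3 each; log2 difference -0.057, 95% interval -0.20 to 0.091). Edem1, Edem2 and Edem3, which trim mannose from failed glycoproteins, differed by -0.11, -0.12 and -0.10 on the log2 scale, with limma adjusted p of 0.462, 0.577 and 0.5405. Derl3, shown by library after its values were seen, was the lowest gene of the 35, at 1.11, 1.47 and 1.19 FPKM in WT and 1.41, 0.999 and 1.55 FPKM in bKO. It was the one gene under 18 FPKM, and its log2 difference of -0.039 (95% interval -0.31 to 0.23) turned positive without quantile normalization (0.035) and with median of ratios scaling (0.0044).

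**Figure D3:**
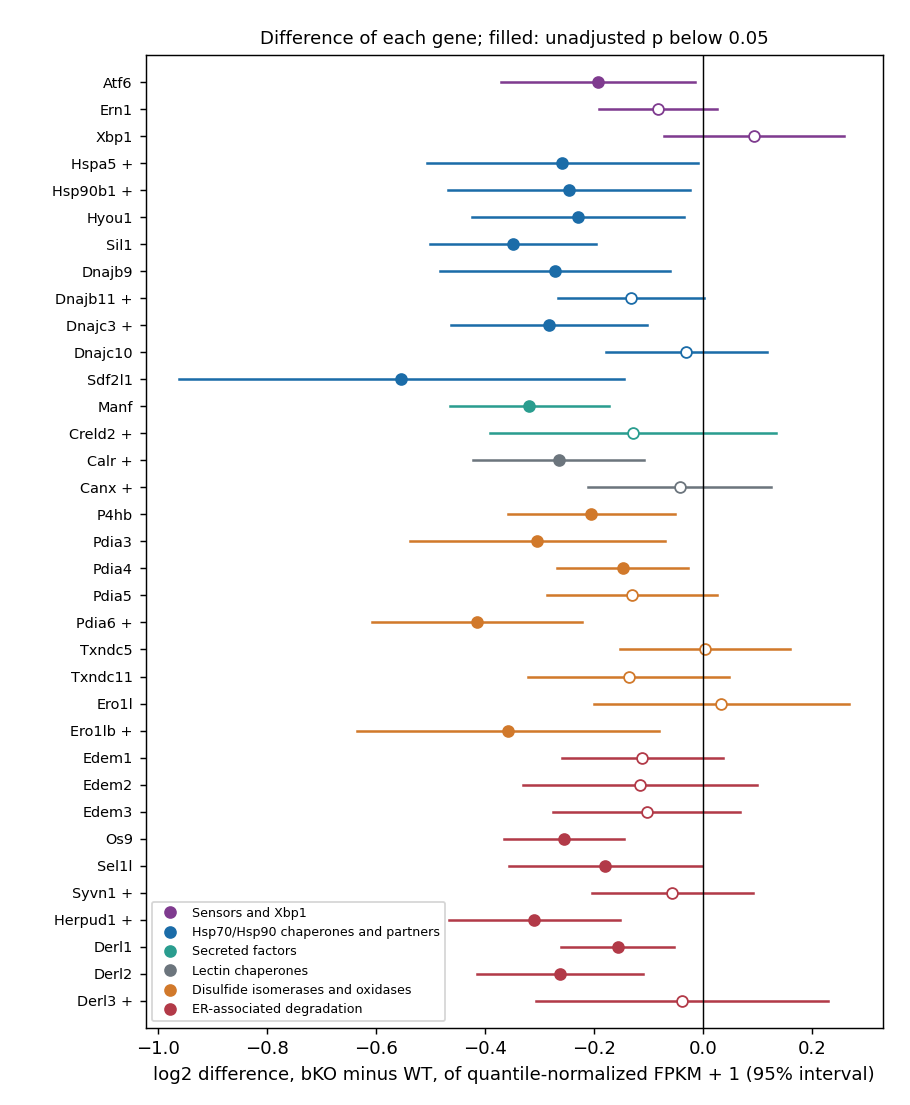
Log2 difference of bKO minus WT with its 95% interval for each of the 35 genes, coloured by role, with filled points at an unadjusted p below 0.05 and a plus sign after genes with an exact ERSE or ERSE-II match. The points of 32 genes lie left of 0, and genes with and without a match have overlapping ranges, with the 3 positive differences in genes without a match.

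Genes with and without an exact match to an element had overlapping ranges of difference. Of the 12 genes with an ERSE or ERSE-II, 12 had negative differences and 7 were lower at an unadjusted p below 0.05, with a median of -0.25. Of the 18 genes with a window and no exact match, 15 had negative differences and 8 were lower at that threshold. Their median was -0.13, and their range of -0.55 to 0.093 held the -0.41 to -0.039 of the first set. The 5 genes with no window in the table, Atf6, Derl1, Hyou1, Manf and Sil1, were all lower at that threshold. Another 16 tested genes held an element and were not on the list, and 9 of them had negative differences, with 3 lower and 0 higher. Over all tested genes 53.0% of differences were negative, and 9.17% were lower and 5.05% higher at that threshold. The difference between genes with and without an exact match was not tested.

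The share of the islet transcriptome taken by these 35 genes was lower in each bKO library than in each WT library. The 35 genes summed to 4660.1, 5227 and 5091 FPKM in WT and to 4302, 4585 and 4286 FPKM in bKO. Part of the FPKM of every library is insulin, so the sum was also set against all FPKM other than Ins1 and Ins2. That share was 0.984%, 1.01% and 0.971% in WT and 0.828%, 0.916% and 0.828% in bKO. The library bKO 2 lay between the other bKO libraries and WT. Against all FPKM the share was 0.629%, 0.635% and 0.681% in WT and 0.602%, 0.609% and 0.6098% in bKO, again without overlap.

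A few genes made up most of this sum, and the proportions of the 5 most abundant were nearly the same in both groups. Hspa5, P4hb, Calr, Pdia3 and Hsp90b1 took 53.2% of it on average. Hspa5 took 13.04% over all libraries, and P4hb took 12.5% in WT and 12.9% in bKO. Some other proportions differed more. Pdia6 took 5.11% in WT and 4.35% in bKO, Sdf2l1 took 1.785% and 1.384%, and Xbp1 took 3.73% in WT and 4.52% in bKO. Xbp1 ranked seventh of 35 in level.

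**Figure D4:**
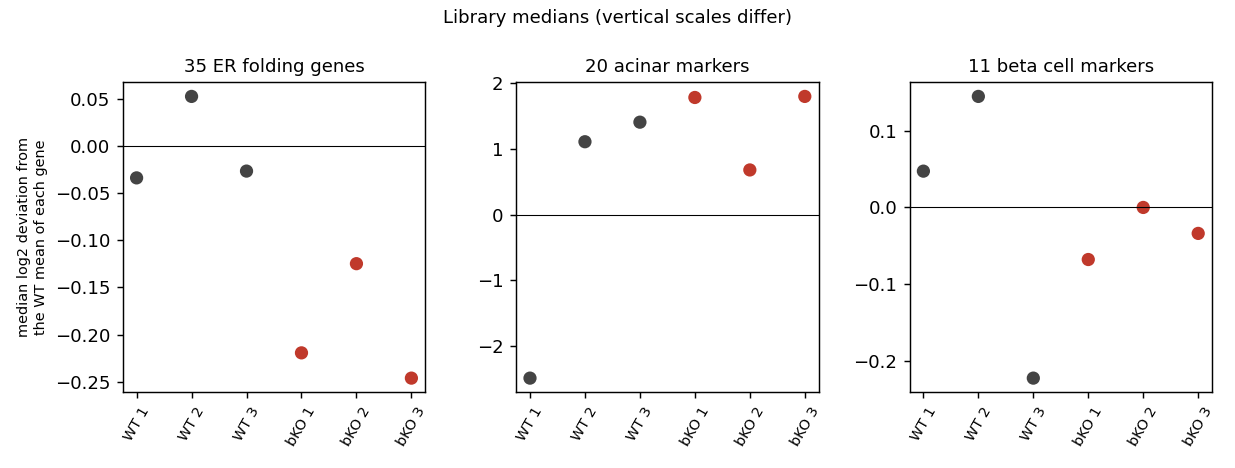
Median log2 deviation from the WT mean in each library, on the quantile-normalized scale, for the 35 ER folding genes, 20 acinar markers and 11 beta cell markers, with separate vertical scales. For the ER folding genes the bKO libraries lie at -0.22, -0.12 and -0.25, below the WT libraries at -0.034 to 0.053, and on this scale, which sets the difference of Ins1, Ins2 and Iapp to 0, the acinar and beta cell medians overlap between groups.

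The median deviation of the 35 genes from their WT means was -0.034, 0.053 and -0.027 in the WT libraries and -0.22, -0.12 and -0.25 in the bKO libraries. The library bKO 2 was thus nearer to WT than the close pair bKO 1 and 3, and it had the highest FPKM of its group for 27 of the 35 genes. In bKO 2 alone, 15 of the 35 genes (42.9%) were below every WT library in deposited FPKM, against 13.3% of all tested genes. The acinar medians were -2.50, 1.11 and 1.41 in WT and 1.79, 0.68 and 1.80 in bKO. The WT range was wide because of WT 1, bKO 2 lay between WT 1 and WT 2, and bKO 1 and 3 lay above all WT libraries. WT 1, with the least acinar RNA, had the lowest deposited FPKM of its group for 26 of the 35 genes. On the quantile-normalized scale it had the lowest value for 18 and the highest for 11. Markers of some other cells also moved with the groups, with 0 genes called in any list. The counts that follow stand beside 9.17% lower and 5.05% higher over all tested genes at an unadjusted p below 0.05. Endothelial markers, 7 of 8 of them higher at an unadjusted p below 0.05, had medians of -0.10 to 0.11 in WT and 0.34 to 0.43 in bKO, with summed levels of 140.1 to 157 and 199.5 to 210.3 FPKM. Leukocyte markers, 3 of 7 lower at that threshold, had medians of -0.12 to 0.040 and -0.31 to -0.30, with summed levels of 87.4 to 100.5 and 72.8 to 73.5 FPKM. Beta cell markers, 2 of 11 lower, had medians of -0.22 to 0.14 and -0.068 to 0, but 3 of the 11 (Ins1, Ins2 and Iapp) hold the top ranks, where quantile normalization sets their difference to 0. In deposited FPKM every bKO library lay below every WT library for 4 of the 11, Ins1 (bKO mean 63.8% of the WT mean), Iapp (68.6%), Ucn3 (57.8%) and G6pc2 (65.8%). Their summed level was 271233 to 359662 FPKM in WT and 216917 to 293602 FPKM in bKO. At the same threshold 2 of 7 stellate cell markers were higher, and 2 of 5 delta and PP cell and 1 of 4 plasma cell markers were lower. The delta and PP cell genes were Sst (log2 difference -0.54, and -0.27 without quantile normalization) and Rbp4 (-0.47 and -0.43). Both overlapped between groups in deposited FPKM. The plasma cell list gene was Cd79a, at a low level of 0.104 to 1.02 FPKM. None of 20 acinar, 7 alpha cell and 6 duct markers passed that threshold. No marker of the lists found in the table was at 0 in any library, and the part of other cell types in the ER folding values was not tested.

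Beyond the 35 genes, the companion list named 80 other genes of ER folding, sugar trimming, degradation and stress sensing, of which 78 were tested. Of these 78, 0 were called, 12 were lower and 1 was higher at an unadjusted p below 0.05 (15.4% lower, against 9.17% of all tested genes). Differences were negative for 50 of 78, with a median of -0.039, and for 31 of 78 (39.7%) without quantile normalization, with a median of 0.019. Over all tested genes the share of negative differences went from 53.0% to 34.8% between these settings, and the median from -0.0084 to 0.048. Enzymes of sugar trimming, listed with sugar-binding proteins of the ER, had 4 of 9 lower (Uggt1, Lman1 and, named after their values were seen, Mogs and Ganab) and all 9 differences negative, 6 without quantile normalization. Uggt1, which marks misfolded glycoproteins for another round of folding, was at 45.2, 48.8 and 45.8 FPKM in WT and 40.5, 44.3 and 39.4 FPKM in bKO, with no overlap (log2 difference -0.21, SE 0.062, limma adjusted p = 0.219). Ubiquitin and extraction factors of the membrane and cytosol gave 2 of 22 lower, a share of 9.09% at the level of all tested genes. The 2 were selenoproteins that bind derlins, Selk at 167, 195 and 187 FPKM in WT and 145, 163 and 143 FPKM in bKO and Vimp at 101, 105 and 99.3 FPKM in WT and 84.1, 93.8 and 83.2 FPKM in bKO, both with no overlap (limma adjusted p = 0.156 and 0.187).

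The other groups of the companion list held few genes that were lower at an unadjusted p below 0.05. They were 3 of 17 oxidoreductases (17.6%), 1 of 8 prolyl isomerases (12.5%), 2 of 14 chaperones (14.3%) and 0 of 8 sensors and factors. Over all tested genes the share was 9.17%, and with so few genes per group these shares were not told apart from it. Txndc16, a thioredoxin-like ER protein, was at 6.62, 6.05 and 5.43 FPKM in WT and 4.32, 5.13 and 4.47 FPKM in bKO, with no overlap (log2 difference -0.40, SE 0.096, limma adjusted p = 0.155). Fkbp2, a prolyl isomerase of the ER, was at 164, 192 and 183 FPKM in WT and 129, 162 and 122 FPKM in bKO, also with no overlap (log2 difference -0.39, SE 0.11, limma adjusted p = 0.205). Lman1 of the sugar group, a cargo receptor for glycoproteins leaving the ER, had a log2 difference of -0.31 (limma adjusted p = 0.246). The 1 higher gene, named after its values were seen, was Creb3l2, a membrane-bound transcription factor related to Atf6, at 33.1, 37.9 and 39.3 FPKM in WT and 43.7, 43.2 and 41.6 FPKM in bKO (log2 difference 0.17, SE 0.063, limma adjusted p = 0.309). Pdia2, the disulfide isomerase of acinar cells, also named after its values were seen, was at 0.397, 14.02 and 21.4 FPKM in WT and 24.9, 10.5 and 21.8 FPKM in bKO. Its level followed the acinar markers, low in WT 1 and highest in bKO 1 and 3, and its groups overlapped (log2 difference 1.24, SE 1.03, limma adjusted p = 0.604).

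**Figure D5:**
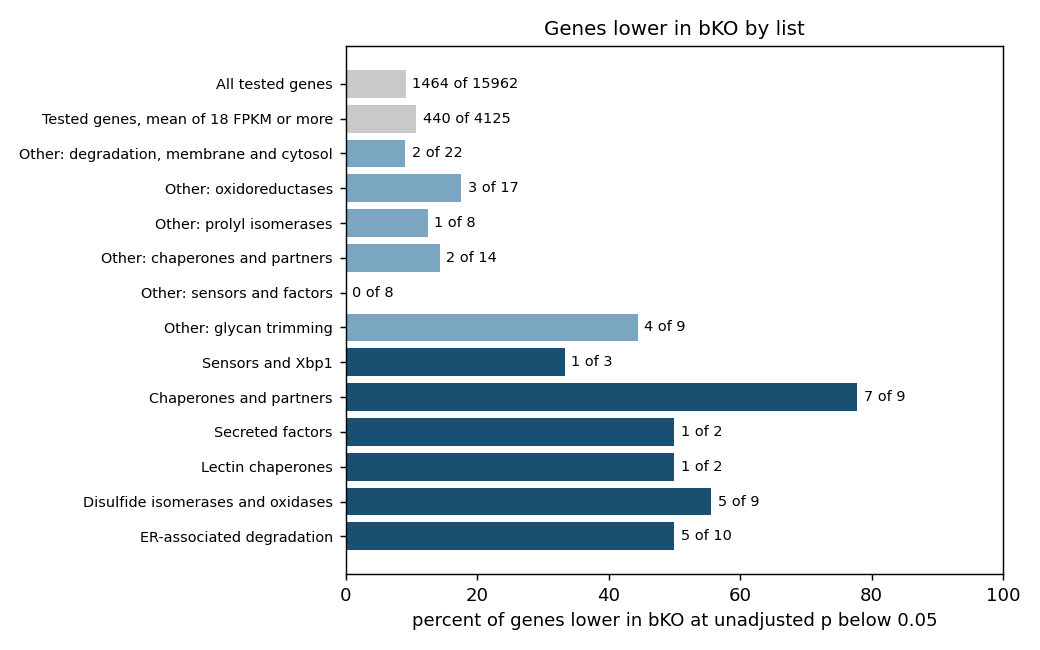
Percent of genes lower in bKO at an unadjusted p below 0.05 (horizontal axis) for all tested genes, for those at a mean of 18 FPKM or more, for each role of the companion list (light blue) and for each role of the 35 genes (dark blue), with counts beside the bars. Chaperones and their partners reach 7 of 9, against 1464 of 15962 for all tested genes.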

How the data were processed

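Per the file headers, the deposited values are FPKM, 1 value per gene and library. Per the design text, the authors' provider trimmed and mapped the reads and ran Cufflinks with the annotation held fixed. The submitters' processing notes name the build mm9, while no source used here names the aligner. The deposited FPKM are linear and are not quantile normalized, unlike the processing that text describes. Titles of the samples gave the groups and replicate numbers, and 0 value columns were unmapped. The 2 rows without a gene and 585 genes at 0 in a library were left out, which kept 15962 of 16547. Values were transformed as log2(FPKM + 1), which understates changes of low genes, and quantile normalized. The test was limma 3.58.1 under R 4.3.3 (eBayes with trend, two-sided) with Benjamini-Hochberg adjustment over all tested genes and a threshold of 0.05. Means, SD and sums are of deposited FPKM, and intervals are 95%. The limma fit was also run on simulated libraries with known folds and independent noise.

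The 35 genes, the companion list and the markers were chosen with earlier results of these data known. Genes shown library by library are those at an unadjusted p below 0.05 and the most abundant of each role, plus Derl3, Creb3l2 and Pdia2, chosen after their values were seen. Companion genes named are the 6 with the smallest p at a mean of at least 1 FPKM. Depth was estimated as the value that put most low FPKM of genes with 1 transcript within 0.1 of a whole fragment, using GENCODE transcript lengths. Since 34.7% to 41.3% of values fitted, fragment counts were not recovered and counting error is not given. Libraries were not treated as paired in the main test, and whether replicate numbers pair them was not settled. Tables and figures used Python 3.11.15, pandas 2.3.3 and matplotlib 3.10.9.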

Additional observations from a re-analysis of the deposited data

How the results depend on the processing

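The 14 alternatives changed the pseudocount (0.1), the scaling (median of ratios, or none), the filter (none, or a mean FPKM of 1), the eBayes trend or the replicate block, left out single libraries, or averaged bKO replicates 1 and 3. Of 490 values of single genes under these settings, 473 kept their direction and their side of the threshold, 15 changed sign and 2 passed the threshold (Sdf2l1 and Pdia6 without WT replicate 1, above). The cause of these changes was not tested. Over all genes, the replicate block and the averaged pair each gave 0 calls, and leaving out 1 library gave 0 to 50. For the 35 genes, calls with 1 library left out numbered 0 to 2, and genes lower at an unadjusted p below 0.05 numbered 10 to 22, and 10 with the pair averaged. Over all tested genes the lower share at that threshold was then 4.85% to 12.1%, and 4.95% with the pair averaged. Their median difference was -0.13 without quantile normalization, and negative differences in the companion list were then 31. With 1 library left out, Txndc5 ranged from -0.032 to 0.062, Ero1l from -0.023 to 0.12, Derl3 from -0.12 to 0.045 and Dnajc10 from -0.060 to 0.027. With the pair averaged, Txndc5 was at -0.010 and Ero1l at -0.011. With median of ratios scaling, Txndc5 was at -0.013 and Derl3 at 0.0044, and Derl3 was at 0.035 without quantile normalization.

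Whether the replicate numbers pair the libraries was not settled. Deviations from the group means of same-numbered libraries correlated across genes at -0.20, 0.074 and 0.30, and WT 1 correlated best with bKO 2, at 0.22. The highest correlation was 0.305, of WT 3 with bKO 1, beside 0.303 of WT 3 with bKO 3. Since bKO 1 and 3 are so close to each other, these values cannot tell which of them would pair with WT 3. With the replicate block, 0 of the 35 genes were called, 19 were lower at an unadjusted p below 0.05 and 32 differences were negative. Over all tested genes that block gave 8.56% lower and 53.0% negative. Precision is limited by 3 libraries per group. Differences of 28 of the 35 genes are smaller than 0.3 on the log2 scale, and a p above the threshold does not show that a gene was the same in both groups.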
